A study of Mus musculus with 28 samples.

Results

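The serum amyloid, orosomucoid and related acute phase genes were followed here as a set of 10 genes picked by symbol: Saa1, Saa2, Saa3, Saa4, Orm1, Orm2, Lcn2, Hp, Hpx and Hamp. All 10 were in the liver table of 22116 named genes and all 10 in the kidney table of 21797. Messenger RNA was measured by sequencing in liver and kidney of male C57BL/KsJ db/db mice, which lack a working long leptin receptor and become obese and diabetic, so every group, the controls included, carried that genotype. In each tissue 4 groups were compared: treadmill high-intensity interval training (HIIT, given as 60 min in the titles), semaglutide injection (a GLP-1 receptor agonist), both treatments combined, and sedentary controls under normal rearing. Mice entered the study at 8 weeks of age and were treated for 8 weeks. The dose of semaglutide is 0.05 mg/kg in the titles and 30 nmol/kg in the protocol text. Liver had 3 libraries in each group and kidney 4, numbered as in the titles. Nothing in the labels says that each library came from its own mouse, and the p-values therefore reflect only how much these libraries scatter, which may be technical. No lean, non-db/db group was analysed here.

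Acute phase proteins are plasma proteins that the liver makes in larger or smaller amounts after infection, injury or sterile inflammation. Interleukin-6, acting through STAT3, and interleukin-1 and tumour necrosis factor, acting through NF-kappaB and C/EBP factors, switch on their genes in hepatocytes. The serum amyloid A proteins travel on high-density lipoprotein, the orosomucoids are alpha-1-acid glycoproteins that bind drugs and lipids, lipocalin-2 withholds iron from bacteria by binding their siderophores, haptoglobin and hemopexin clear free haemoglobin and haem, and hepcidin, the product of Hamp, closes the iron exporter ferroportin. Lcn2 and Saa3 are also made outside the liver, by tubular epithelium, macrophages and adipocytes among others.

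The promoters of the inducible members are printed to show what separates the near-identical gene copies described later. RefSeq windows of the GRCm38.p6 build, from 250 bases before to 50 after each gene start, were found for 8 of the 10 members, for Hamp2 and for Orm3. The expression files name GRCm39, so these coordinates belong to the reference only. The windows are chr7:46742931-46743230 (minus strand) for Saa1, chr7:46751583-46751882 (plus) for Saa2, chr7:46715627-46715926 (minus) for Saa3, chr2:32387690-32387989 (minus) for Lcn2, chr7:30943980-30944279 (minus) for Hamp and chr7:30924132-30924431 (minus) for Hamp2. Capitals mark matches, on either strand, to an NF-kappaB pattern (GGG and CC with any 5 bases between them), a C/EBP pattern TTNNGNAA, a STAT3 pattern TTCNNNGAA and the BMP-responsive element GGCGCC.
Saa1: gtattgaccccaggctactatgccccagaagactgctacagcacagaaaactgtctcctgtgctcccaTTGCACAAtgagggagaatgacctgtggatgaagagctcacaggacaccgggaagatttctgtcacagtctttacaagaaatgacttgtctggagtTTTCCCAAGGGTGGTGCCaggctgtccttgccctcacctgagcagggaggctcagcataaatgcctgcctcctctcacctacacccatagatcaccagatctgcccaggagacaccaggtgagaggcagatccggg
Saa2: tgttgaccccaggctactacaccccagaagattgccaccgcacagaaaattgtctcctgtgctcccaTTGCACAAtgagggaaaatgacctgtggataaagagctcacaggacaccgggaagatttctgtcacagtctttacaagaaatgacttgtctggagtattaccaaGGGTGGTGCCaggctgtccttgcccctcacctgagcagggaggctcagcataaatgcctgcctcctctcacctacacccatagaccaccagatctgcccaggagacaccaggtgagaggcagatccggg
Saa3: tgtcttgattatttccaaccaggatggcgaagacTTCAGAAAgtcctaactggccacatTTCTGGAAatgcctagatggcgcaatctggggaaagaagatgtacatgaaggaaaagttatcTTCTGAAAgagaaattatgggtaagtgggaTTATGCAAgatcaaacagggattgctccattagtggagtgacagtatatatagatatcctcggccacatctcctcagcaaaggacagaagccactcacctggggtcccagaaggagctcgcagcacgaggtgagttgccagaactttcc
Lcn2: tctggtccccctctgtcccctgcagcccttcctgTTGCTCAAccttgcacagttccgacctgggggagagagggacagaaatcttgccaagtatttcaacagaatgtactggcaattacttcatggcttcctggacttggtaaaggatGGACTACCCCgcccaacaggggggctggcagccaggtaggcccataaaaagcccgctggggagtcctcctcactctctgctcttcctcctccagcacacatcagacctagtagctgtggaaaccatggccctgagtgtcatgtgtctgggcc
Hamp: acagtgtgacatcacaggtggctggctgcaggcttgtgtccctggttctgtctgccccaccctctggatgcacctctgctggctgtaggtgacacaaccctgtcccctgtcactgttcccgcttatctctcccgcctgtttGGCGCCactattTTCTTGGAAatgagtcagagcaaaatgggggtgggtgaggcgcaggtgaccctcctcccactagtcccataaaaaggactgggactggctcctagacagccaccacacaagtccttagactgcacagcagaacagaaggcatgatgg
Hamp2: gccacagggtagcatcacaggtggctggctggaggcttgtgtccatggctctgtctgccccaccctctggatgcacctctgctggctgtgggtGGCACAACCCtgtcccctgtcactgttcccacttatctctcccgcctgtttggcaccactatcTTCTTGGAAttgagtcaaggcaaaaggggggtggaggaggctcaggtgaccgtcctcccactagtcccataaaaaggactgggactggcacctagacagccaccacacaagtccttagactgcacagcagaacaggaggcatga

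The Saa1 and Saa2 windows were 96.0% identical over 299 aligned bases, and both hold an NF-kappaB match, at positions -78 and -79 from the gene start. In Saa1 that match directly adjoins a second C/EBP match, TTTCCCAA, and the Saa2 window holds no match there. The Saa3 window was 61.0% identical to that of Saa1 and holds 4 C/EBP matches and no NF-kappaB match. The Lcn2 window holds 1 match of each of these patterns. Hamp and Hamp2 shared 92.9% of 297 aligned bases and the STAT3 match TTCTTGGAA. The element GGCGCC, at position -109 of Hamp, is not in the Hamp2 window. Hamp2 holds an NF-kappaB match, GGCACAACCC, at position -157, and the Hamp window holds no match to that pattern. The patterns are short and common: of 32544 promoter windows of the same length, 51.0% hold the NF-kappaB pattern, 40.7% the C/EBP pattern, 8.3% the STAT3 pattern and 11.9% the BMP-responsive element. Among the 8 member windows the counts were 4, 7, 1 and 1 in the same order of patterns.

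Before the members are described, 3 libraries have to be set apart. Each library was compared with the others of its tissue by the correlation of log2(FPKM + 1), where FPKM is the fragment count scaled by transcript length and by the mapped fragments of the library. The median correlation was 0.97 for liver control 3 and 0.901 for liver semaglutide 2, against 0.989 to 0.992 for the other livers. It was 0.942 for kidney control 1, against 0.979 to 0.991 for the other kidneys. In liver control 3 the 13 neutrophil markers summed to 428 FPKM, against at most 18.1 in any other liver, and the 15 macrophage markers to 1057 FPKM. Semaglutide 2 carried skeletal muscle and fat transcripts, with 3902 FPKM of Acta1 (muscle actin) and 137 FPKM of Adipoq (adiponectin), and its hepatocyte markers summed to 23131 FPKM, against 21359 to 48533 in the other livers. For some results that rest on these libraries, values without them are also given. The other results are given with all libraries only.

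**Figure D1:**
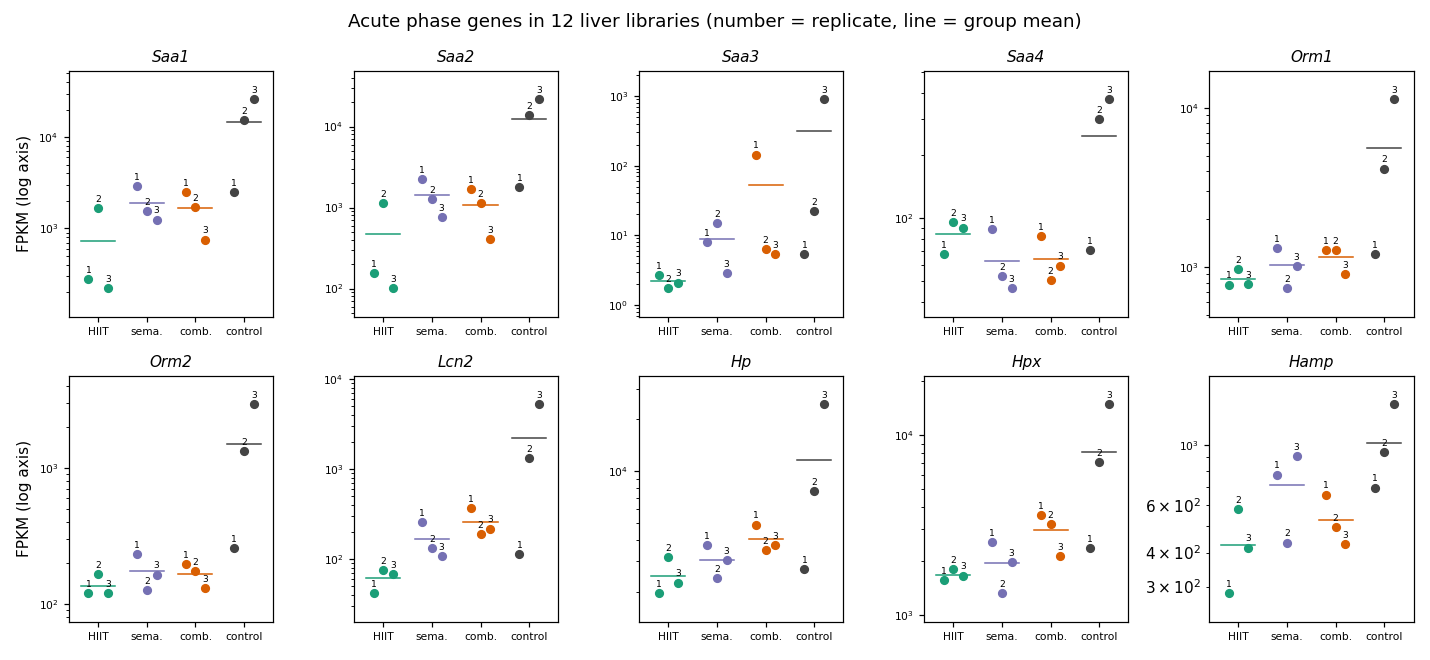
FPKM of the 10 acute phase genes in each liver library, on log axes that differ between panels, by group (sema., semaglutide; comb., combined). Numbers give the replicate and lines the group mean. Controls 2 and 3 lie above all treated libraries for every gene but Saa3, and control 1 lies among them for all but Orm2. The share of all liver genes with such an order was not counted.

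Saa1 and Saa2 are the inducible serum amyloid A genes of mouse liver and, with Hp, were the most abundant members in controls 2 and 3. Saa1 had 281, 1662 and 221 FPKM in HIIT livers, 2909.9, 1538 and 1251 FPKM in semaglutide livers and 2499, 1715 and 755 FPKM in combined livers, against 2508, 15543 and 26104 FPKM in control livers. Controls 2 and 3 stood above all 9 treated libraries, whereas control 1 was within the range of the treated libraries, below semaglutide 1. Saa2 had 154, 1143 and 101 FPKM in HIIT livers, 2250.4, 1259 and 765 FPKM in semaglutide livers and 1702, 1149 and 404.5 FPKM in combined livers, against 1807, 13993 and 21804 FPKM in control livers. The order of libraries was close to that of Saa1, with HIIT 1 and HIIT 3 the lowest for both genes. The ratio of Saa1 to Saa2 was 1.45 to 2.19 in HIIT livers, 1.22 to 1.63 in semaglutide livers and 1.47 to 1.87 in combined livers, against 1.11 to 1.39 in control livers. The transcripts are 94.4% identical over 606 aligned bases, so reads may have been divided between the copies by the quantification and the ratio is uncertain. Saa2 FPKM was in turn divided over 2 annotated transcripts, 1 holding 35.3 to 63.4% and the other 36.6 to 64.7% of the gene's value in a library.

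Saa3 encodes the serum amyloid A made largely outside hepatocytes. It had 2.71, 1.73 and 2.08 FPKM in HIIT livers, 8.02, 15.2 and 2.89 FPKM in semaglutide livers and 145, 6.41 and 5.36 FPKM in combined livers, against 5.30, 22.6 and 904 FPKM in control livers. Control 3 was 171 times control 1, and combined 1 was the second highest library, above control 2. The neutrophil and macrophage markers were also highest in control 3, as given above. In combined 1 the neutrophil markers summed to 6.35 FPKM and the macrophage markers to 179.6 FPKM, within the 0.644 to 18.1 and 82.7 to 545 FPKM of the livers other than control 3. The part of these cells in the Saa3 values was not tested, and in bulk tissue more cells of a type and more RNA per cell cannot be told apart. Saa4, the constitutive serum amyloid A, had 67.8, 95.8 and 90.4 FPKM in HIIT livers, 88.9, 52.9 and 46.4 FPKM in semaglutide livers and 82.1, 50.7 and 59.4 FPKM in combined livers, against 70.8, 299 and 372 FPKM in control livers. Control 1 fell inside the span of the treated livers again, and controls 2 and 3 were 4.22 and 5.25 times control 1. Saa1 was 2.44 to 17.3 times Saa4 in HIIT livers, 26.98 to 32.7 times in semaglutide livers and 12.7 to 33.9 times in combined livers, against 35.4 to 70.2 times in control livers.

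The orosomucoids showed the tightest treated groups. Orm1 had 777, 977 and 785 FPKM in HIIT livers, 1318, 738 and 1022 FPKM in semaglutide livers and 1284, 1274 and 905 FPKM in combined livers, against 1212, 4164 and 11379 FPKM in control livers. The highest treated library was only 1.79 times the lowest, while control 3 was 9.39 times control 1. Orm2 had 120.4, 165 and 119.7 FPKM in HIIT livers, 235, 126 and 165 FPKM in semaglutide livers and 196, 175 and 130.2 FPKM in combined livers, against 259, 1336 and 2953 FPKM in control livers. Among the 10 members, Orm2 alone had all 9 treated libraries below all 3 controls, a pattern that 0.618% of the 10348 genes tested showed in that direction. The ratio of Orm1 to Orm2 was 5.90 to 6.56 in HIIT livers, 5.62 to 6.199 in semaglutide livers and 6.54 to 7.27 in combined livers, against 3.12 to 4.68 in control livers, with no overlap of treated and control livers. The 2 transcripts are 91.0% identical over 775 bases, so this ratio too is uncertain. Orm3, the third mouse orosomucoid gene and not a member of the set, had 30.7 to 49.3 FPKM in HIIT livers, 45.7 to 87.3 FPKM in semaglutide livers and 59.4 to 71.0 FPKM in combined livers, against 47.8, 163 and 276 FPKM in control livers.

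Lcn2, which encodes the siderophore-binding lipocalin-2, separated the controls more than any other member apart from Saa3. It had 41.4, 74.7 and 68.2 FPKM in HIIT livers, 258, 133 and 107 FPKM in semaglutide livers and 368, 189 and 217 FPKM in combined livers, against 112, 1304 and 5201 FPKM in control livers. HIIT livers lay below every control, but control 1 was lower than 5 of the 9 treated libraries. Controls 2 and 3 were 11.6 and 46.2 times control 1.

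Hp and Hpx, the haemoglobin and haem scavengers, were among the most abundant members. Hp had 1957, 3173 and 2262 FPKM in HIIT livers, 3739.6, 2399.6 and 3068 FPKM in semaglutide livers and 4908, 3483 and 3746 FPKM in combined livers, against 2697, 7686 and 24371 FPKM in control livers. Control 1 was below 6 of the 9 treated libraries, 3 of them the combined livers. Hpx had 1561, 1808 and 1657 FPKM in HIIT livers, 2546, 1318 and 1966 FPKM in semaglutide livers and 3586, 3191 and 2123 FPKM in combined livers, against 2363, 7127 and 14887 FPKM in control livers. HIIT livers were below all controls, and 3 treated libraries were above control 1.

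Hamp, the hepcidin gene, moved within the narrowest span of the set. It had 283, 581 and 417 FPKM in HIIT livers, 776, 436 and 910.0 FPKM in semaglutide livers and 655, 497 and 429.6 FPKM in combined livers, against 695, 936 and 1408 FPKM in control livers. HIIT and combined livers lay below all 3 controls, and semaglutide 1 and 3 lay above control 1. Hamp2, the second mouse hepcidin gene and not a member, had 305, 328 and 344 FPKM in HIIT livers, 315, 179.9 and 262 FPKM in semaglutide livers and 74.5, 259 and 456 FPKM in combined livers, against 379.7, 75.9 and 41.0 FPKM in control livers. Its lowest libraries were control 3, combined 1 and control 2, which were also the 3 livers with the most Lcn2. Hamp was 0.926 to 1.77 times Hamp2 in HIIT livers, 2.42 to 3.47 times in semaglutide livers and 0.942 to 8.79 times in combined livers, against 1.83, 12.3 and 34.3 times in control livers. The 2 transcripts are 94.6% identical over 410 bases, so the division of reads between them is uncertain.

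**Figure D2:**
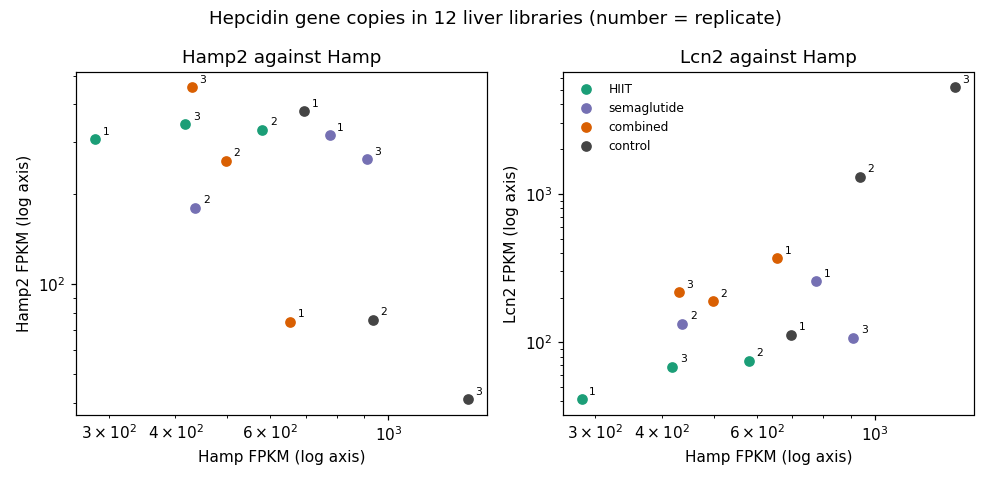
FPKM of Hamp2 (left) and Lcn2 (right) against FPKM of Hamp in the 12 liver libraries, all axes logarithmic, coloured by group with replicate numbers. Controls 2 and 3 are high for Hamp and Lcn2 and, with combined 1, low for Hamp2 (75.9, 41.0 and 74.5 FPKM).

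Summed, the 10 genes took a variable share of the liver messenger RNA. They held 1.01, 1.83 and 1.10% of the summed FPKM in HIIT livers, 2.67, 1.52 and 1.76% in semaglutide livers and 2.91, 2.24 and 1.63% in combined livers, against 2.23, 9.54 and 19.8% in control livers. Controls 2 and 3 were again the high libraries and control 1 was inside the treated range. Saa1 and Saa2 alone made 5.38 and 8.66% of controls 2 and 3. Alb, which encodes albumin, had 15328 and 8822 FPKM in controls 2 and 3, against 27487 FPKM in control 1.

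**Figure D3:**
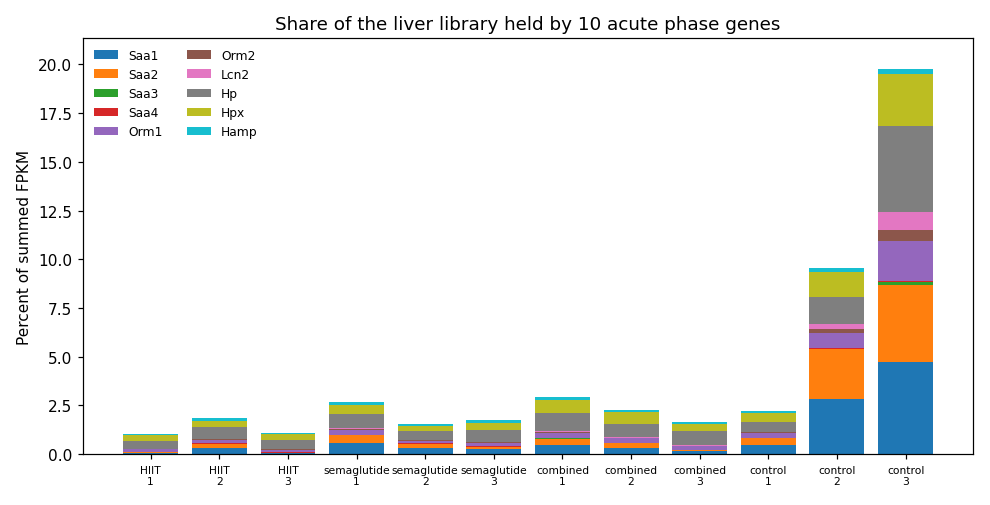
Percent of the summed FPKM of each liver library held by the 10 acute phase genes, stacked by gene, with one bar for each library. The shares are 2.23, 9.54 and 19.8% in the 3 controls and 1.01 to 2.91% in the 9 treated libraries.

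Each treatment was tested against the controls with limma on log2(FPKM + 1), fitted over the 10348 liver genes that reached 1 FPKM in 3 libraries or more, with Benjamini-Hochberg adjustment. All 10 members passed that filter, and changes below are log2 differences on this scale with their standard errors. The comparisons share the 3 control libraries, so their changes are not independent of each other.

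With HIIT, limma called 0 of the 10 members at an adjusted p of 0.05, as it called 0% of all genes (0 of 10348), and 10 of 10 members were lower at an unadjusted p under 0.05, which 2.73% of genes were. The changes were -4.97 ± 1.06 for Saa2, -4.42 ± 0.93 for Saa1, -4.02 ± 1.63 for Saa3 and -3.92 ± 1.04 for Lcn2, with limma adjusted p-values of 0.676 to 0.682 over the 10 members. For the orosomucoids they were -2.91 ± 0.67 (Orm2) and -2.20 ± 0.61 (Orm1), and for Hpx -1.91 ± 0.54. Hp (-1.72 ± 0.61), Hamp (-1.24 ± 0.36) and Saa4 (-1.24 ± 0.52) had the smallest differences. HIIT and control livers did not overlap for 8 of the 10, all but Hp and Saa4, whereas 5.7% of genes were lower without overlap. Saa2, Saa1, Saa3 and Lcn2 were the 4 lowest log2 changes of all 10348 genes. The median change of the members was -2.55, against 0.05 over all genes tested, and -1.68 without control 3 and semaglutide 2.

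With semaglutide, 0 of the 10 members passed, where limma called 0.715% of genes (74), and 8 of the 10 were lower at an unadjusted p under 0.05, against 6.47% of genes. Saa2 differed by -2.66 ± 1.06, Saa1 by -2.50 ± 0.93, Lcn2 by -2.56 ± 1.04 and Orm2 by -2.56 ± 0.67, with limma adjusted p-values of 0.122 (Orm2) to 0.49 (Hamp) over the members. Hamp had the smallest difference at -0.52 ± 0.36, and without control 3 and semaglutide 2 it was 0.059. Orm2 was the 1 member whose semaglutide and control livers did not overlap, where 6.77% of genes were lower without overlap. The median of the members was -2.23, against 0.09 over all genes, and -1.10 without the 2 libraries.

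With the combined treatment, 0 of the 10 members passed, where limma called 0.309% of genes (32), and 6 of the 10 were lower at an unadjusted p under 0.05, against 4.12% of genes. Saa2 differed by -3.15 ± 1.06, Saa1 by -2.76 ± 0.93 and Orm2 by -2.61 ± 0.67, with limma adjusted p-values of 0.15 (Orm2) to 0.814 (Saa3) over the members. Hp, Hpx and Lcn2 differed by -0.99 ± 0.61, -1.12 ± 0.54 and -1.88 ± 1.04. Leaving out control 1 made these decreases larger, at -1.77, -1.83 and -3.39. Leaving out control 3 and semaglutide 2, which are set apart above, made all of them smaller. Orm2, Saa1, Saa2 and Hamp were lower without overlap, 4 of 10, where 6.23% of genes were. Saa3 changed sign with control 3 left out, to 0.64, against -1.43 with all libraries. The median of the members was -1.70, against 0.05 over all genes, and -0.81 without control 3 and semaglutide 2.

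Combined livers were then set against HIIT livers. The difference itself does not use the controls, but its standard error does, because all 4 groups shared one estimate of the spread. limma called 0 of the 10 members, where it called 0.116% of genes (12), and 0 members had an unadjusted p under 0.05, where 12% of genes did. Lcn2 was higher by 2.04 ± 1.04 (limma adjusted p = 0.471), Saa3 by 2.59 ± 1.63, Hpx by 0.79 ± 0.54 and Hp by 0.73 ± 0.61, and combined livers were above HIIT livers without overlap for these 4, where 17.3% of genes were. When the fit held only these 2 groups, Lcn2 passed with a limma adjusted p of 0.0131, among 562 genes called. Against semaglutide livers, limma called 0 members and 0% of genes, 0 members and 7.85% of genes had an unadjusted p under 0.05, and the changes of the members ran from -0.48 (Saa2) to 1.20 (Saa3). The 95% intervals ran from -2.81 to 1.84 for Saa2 and from -2.39 to 4.79 for Saa3, so differences of several-fold in either direction lie inside them.

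The interaction term, the combined change minus the sum of the 2 single changes, was above 0 for all 10 members, where 60.3% of all genes had one below 0. It was 4.596 ± 1.47 for Lcn2, 4.15 ± 1.31 for Saa1, 2.87 ± 0.95 for Orm2 and 2.54 ± 0.76 for Hpx, with limma adjusted p-values of 0.487 (Hpx) to 0.645 (Hamp) over the members. limma called 0 of the 10, against 0.00966% of genes (1), and 8 members and 8.61% of genes had an unadjusted p under 0.05. The control mean enters this term with a positive sign, so the high values of controls 2 and 3 raise it.

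Pooling the 9 treated livers against the 3 controls gave -3.59 ± 0.86 for Saa2, -3.23 ± 0.76 for Saa1, -2.79 ± 0.85 for Lcn2 and -2.69 ± 0.55 for Orm2. limma called 0 of the 10 members and 0% of genes, and 9 of the 10, all but Saa3, were lower at an unadjusted p under 0.05, as 4.54% of genes were. Orm2 had the smallest limma adjusted p of the set at 0.124, and it ranked 36 of 10348 by p. The other members had adjusted p-values of 0.15 (Saa1) to 0.453 (Saa3). By size of the decrease Saa2, Saa1, Lcn2, Saa3 and Orm2 ranked 2 to 6 of 10348, and Hamp ranked 110. The median of the members was -2.33, against 0.06 over all genes, and -1.09 without control 3 and semaglutide 2.

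**Figure D4:**
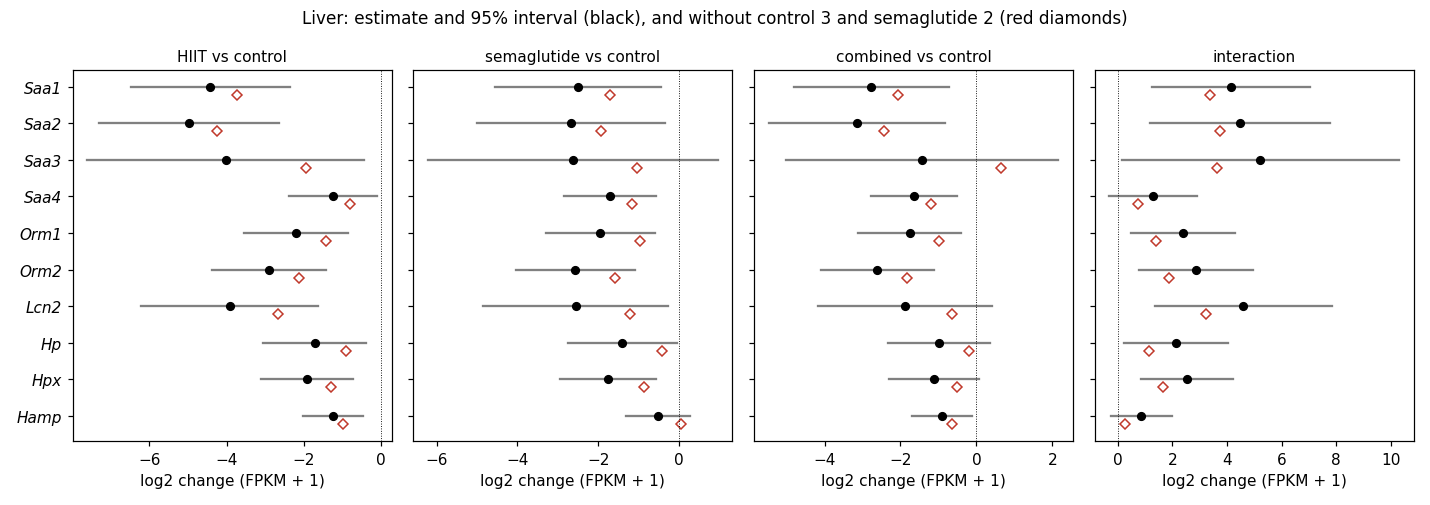
log2 change of each member in liver with its 95% interval (black), for HIIT, semaglutide and combined treatment against control and for their interaction, and the same without control 3 and semaglutide 2 (red diamonds). The diamonds lie closer to 0 than the black points throughout, and for combined treatment Saa3 moves to 0.64.

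The calls turned on control 1. With that library left out, limma called 8 of the 10 members lower with HIIT, all but Saa3 and Hamp, where it called 0.688% of genes lower (71 of 10322), and the adjusted p-values of the 8 ran from 0.00292 (Orm2) to 0.0321 (Hp). It then called 6 members lower with semaglutide (Orm1, Orm2, Lcn2, Hp, Hpx and Saa4, where 1.52% of genes were) and 5 with the combined treatment (Orm1, Orm2, Lcn2, Hpx and Saa4, where 0.833% were). The changes of the 10 members without control 1 ran from -6.06 (Saa2) to -1.49 (Hamp) with HIIT, from -4.14 (Saa3) to -0.76 (Hamp) with semaglutide and from -4.24 (Saa2) to -1.14 (Hamp) with the combined treatment. The interaction was called for Lcn2, Orm2 and Hpx, where 0.145% of genes were called, and the pooled comparison for 8 members, where 1.41% of genes were called lower. In all these fits the control group held controls 2 and 3 alone. They were above all treated livers for every member but Saa3, and control 3 is a library set apart above. Leaving out any other single liver library, control 3 included, gave 0 member calls in every comparison. By its correlation with the other libraries control 1 did not stand apart (0.992), whereas control 3 did (0.97). Most of those other libraries were treated, so this correlation cannot tell which control is typical of untreated db/db liver.

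Transcripts of the inducing pathway were read from the same livers. Il6 was at 0 to 0.381 FPKM in every library, so its level could not be compared. Socs3, a feedback inhibitor that STAT3 induces, had 1.28 to 1.65 FPKM in HIIT livers, 1.79 to 5.30 FPKM in semaglutide livers and 3.36 to 5.34 FPKM in combined livers, against 1.34, 16.9 and 16.7 FPKM in control livers. Stat3 itself had 17.2 to 19.5, 20.1 to 30.6 and 19.4 to 23.6 FPKM in HIIT, semaglutide and combined livers, against 17.1, 40.1 and 39.1 FPKM in control livers. For both genes controls 2 and 3 were above all treated livers and control 1 was not, an order whose share over all genes was not counted. Il1r1, the interleukin-1 receptor, had 5.15 to 10.9, 5.51 to 7.69 and 8.34 to 13.7 FPKM in those treated groups, against 3.90, 33.7 and 44.6 FPKM in control livers. Il1b was high in 1 library, control 3, at 10.1 FPKM, against at most 0.757 FPKM elsewhere. Cebpb had 43.5 to 54.4, 51.3 to 75.2 and 65.3 to 99.0 FPKM in HIIT, semaglutide and combined livers, against 60.7, 82.6 and 91.2 FPKM in control livers. For Cebpd the spans were 1.09 to 1.87, 2.57 to 6.02 and 2.701 to 4.06 FPKM, against 1.74, 3.83 and 4.63 FPKM in control livers. Of the 25 cytokine pathway genes tested, limma called 0 in the pooled comparison, and 3 were lower and 2 higher at an unadjusted p under 0.05, against 4.54% of genes lower and 7.52% higher. Il6ra differed by 0.48 ± 0.12, Cebpa by 0.46 ± 0.19, Bcl3 by -0.62 ± 0.24 and Tnfrsf1a by -0.61 ± 0.24, with limma adjusted p-values of 0.168 to 0.371.

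Of 22 further positive acute phase genes tested, limma called 0 in the pooled comparison, 17 were lower at an unadjusted p under 0.05, against 4.54% of genes, and 21 had a log2 change below 0, against 35.5% of genes. Their median was -1.26, and -0.69 without control 3 and semaglutide 2. The 4 with the smallest p were C3, complement component 3 (-0.85 ± 0.20), the protease inhibitor Serpina10 (-1.12 ± 0.29) and the fibrinogen chains Fga (-1.48 ± 0.39) and Fgg (-1.41 ± 0.37), with limma adjusted p-values of 0.15 to 0.186. Fga had 1132, 1319 and 1549.8 FPKM in HIIT livers, 1703, 875 and 1131 FPKM in semaglutide livers and 1080.2, 1159.8 and 1254 FPKM in combined livers, against 1357, 4573 and 6443 FPKM in control livers. Negative acute phase genes, whose products fall in the acute phase, gave no common direction, with 6 of 10 at a log2 change below 0 (35.5% of genes), 2 lower and 2 higher at an unadjusted p under 0.05 (4.54 and 7.52% of genes), 0 called by limma and a median of -0.09. Alb differed by 0.85 ± 0.33 and Ttr, transthyretin, by 0.51 ± 0.21, and Hrg by -0.48 ± 0.21 and Trf, transferrin, by -0.76 ± 0.34 (limma adjusted p = 0.334 to 0.408).

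The genes of the hepcidin and iron axis, a list not limited to regulators upstream of hepcidin, were tested next. Of 25, limma called 0 in the pooled comparison, 4 were lower and 3 higher at an unadjusted p under 0.05, against 4.54 and 7.52% of genes, and the median was 0.14, against 0.06 over all genes. Fgl1, a hepatokine that antagonises BMP ligands of hepcidin, differed by -1.45 ± 0.39, Atoh8 by -0.53 ± 0.15, Hfe by -0.28 ± 0.09 and Smad9 by 0.41 ± 0.15 (limma adjusted p = 0.19 to 0.306). Of 12 receptors that take up or sense the members 6 could be tested, 0 were called and 2 were lower at an unadjusted p under 0.05, against 4.54% of genes. Lrp1, the hemopexin receptor, differed by -0.63 ± 0.14 and Scarb1, the high-density lipoprotein receptor, by -0.29 ± 0.12, with limma adjusted p-values of 0.146 and 0.379. Cd36 differed by 0.62 ± 0.34 and Fpr2, a receptor for serum amyloid A, by -0.95 ± 0.65 (limma adjusted p = 0.509 and 0.601). Fpr2 reached 16.4 FPKM in control 3, the library with the neutrophil markers, and at most 1.40 FPKM in the other livers.

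Genes whose pattern was most like that of Saa1 were found by Pearson's r of log2(FPKM + 1) over the 12 livers, among 10148 genes outside the set. The first was B3galt1, a galactosyltransferase, at r = 0.90, followed by Itih3 (0.88), Serpina3n (0.87), Fgl1 (0.87) and Lrg1 (0.87). Chi3l1, Itih4, Qsox1, Bmper and Clp1 completed the first 10 at 0.86 to 0.83. Over the 9 treated livers alone r was 0.74 for B3galt1, 0.75 for Serpina3n, 0.79 for Chi3l1, 0.41 for Itih4 and 0.40 for Qsox1. The points share libraries and their normalization, and controls 2 and 3 lie apart from the rest, so these values describe a ranking only. Among the members r with Saa1 over the 12 livers ran from 0.74 (Saa3) to 1.00 (Saa2).

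In kidney most of the set was near 0. Saa2, Saa4, Orm2, Hpx and Hamp were below 0.6 FPKM in all 16 libraries, and 2 of the 10 members, Lcn2 and Hp, reached 1 FPKM in 4 libraries or more, the filter used. Saa1 was at 12.8 FPKM in control 1 and at most 1.27 FPKM elsewhere, in HIIT 4. Orm1 was at 3.09 FPKM in semaglutide 4 and 1.57 FPKM in control 1, and at most 0.623 FPKM elsewhere. Saa3 was at 859.9 FPKM in control 1 and at most 0.963 FPKM in the other 15 kidneys.

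Kidney Lcn2 is made by the distal tubule and collecting duct after injury and is used as a urinary injury marker. It had 1.27, 0.732, 2.13 and 53.0 FPKM in HIIT kidneys, 12.3, 23.1, 7.51 and 6.65 FPKM in semaglutide kidneys and 8.74, 5.997, 7.79 and 3.84 FPKM in combined kidneys, against 633, 3.54, 3.16 and 0.808 FPKM in control kidneys. All semaglutide and combined kidneys lay above controls 2, 3 and 4 and below control 1, and the HIIT kidneys overlapped the controls. This order was described after the values were seen, and the share of all kidney genes that show it was not counted. Hp had 0.788, 0.330, 0.448 and 6.09 FPKM in HIIT kidneys, 6.25, 0.866, 0.301 and 83.1 FPKM in semaglutide kidneys and 6.16, 0.920, 3.86 and 0.155 FPKM in combined kidneys, against 141, 4.25, 3.86 and 1.54 FPKM in control kidneys. Its groups overlapped, with control 1 and semaglutide 4 far above the rest.

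Control 1 was also the highest kidney for injury and leukocyte transcripts. Havcr1, the tubular injury marker KIM-1, had 129.9 FPKM in control 1 and 47.4 FPKM in HIIT 4, and at most 0.759 FPKM in the other 14 kidneys. The 11 injured tubule markers summed to 10461 FPKM in control 1 and 5135 FPKM in HIIT 4, against 765 to 1967 FPKM elsewhere, and the 10 proximal tubule markers summed to 2950.2 FPKM in control 1, against 5510 to 12200 FPKM elsewhere. Macrophage markers summed to 5556 FPKM in control 1, against 88.9 to 320 FPKM elsewhere, and neutrophil markers to 312 FPKM, against at most 5.72 FPKM. In semaglutide 4, where Hp and Orm1 were high, the 8 adipocyte markers summed to 472 FPKM and Adipoq had 37.2 FPKM, against at most 5.44 FPKM of Adipoq in the other kidneys. Alb, made by hepatocytes, had 1.78 FPKM in control 1, its lowest kidney value. The part of these cells in the Lcn2, Saa3 and Hp values was not tested.

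**Figure D5:**
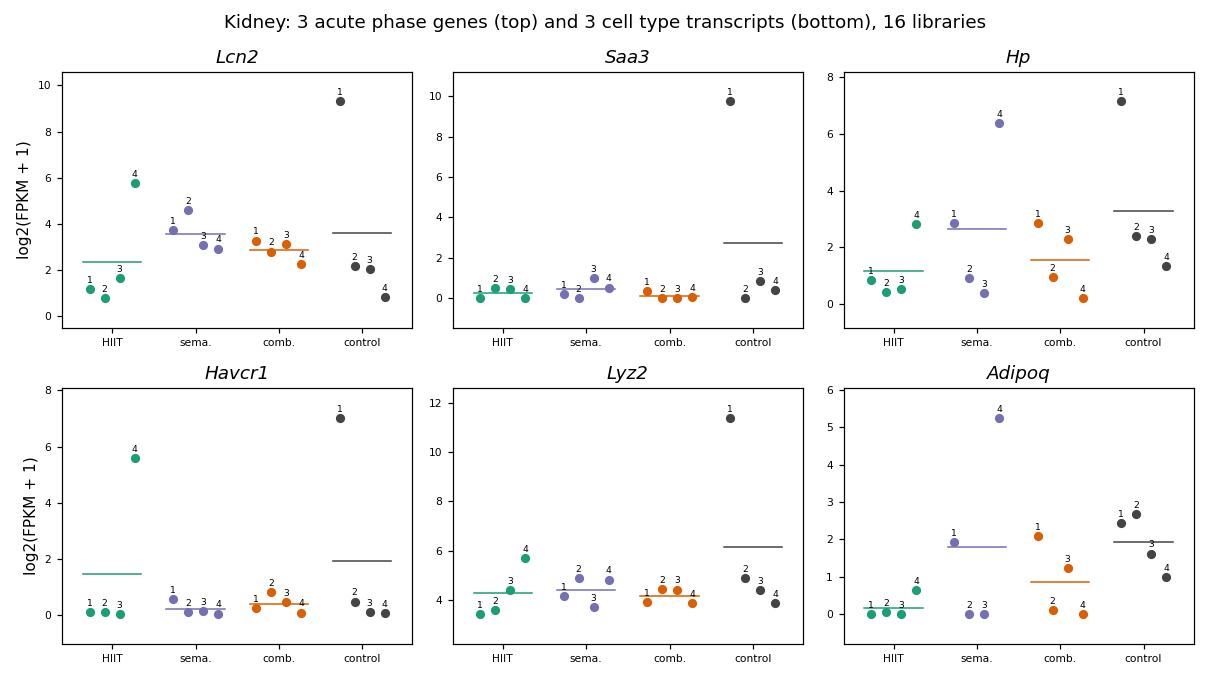
log2(FPKM + 1) of Lcn2, Saa3 and Hp (top) and of the tubular injury transcript Havcr1, the macrophage transcript Lyz2 and the adipocyte transcript Adipoq (bottom) in 16 kidney libraries by group, with replicate numbers and group means as lines. Control 1 is highest for all but Adipoq, HIIT 4 is second for Lcn2 and Havcr1, and semaglutide 4 is highest for Adipoq and second for Hp.

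limma, fitted over 11551 kidney genes, called neither Lcn2 nor Hp with HIIT, semaglutide or the combined treatment, and neither had an unadjusted p under 0.05. It called 0% of genes with HIIT, 0.00866% with semaglutide (1 gene) and 0% with the combined treatment, and 12.5, 3.32 and 2.99% of genes had an unadjusted p under 0.05 in the same order of treatments. Lcn2 differed by -1.26 ± 1.36 with HIIT, -0.01 ± 1.36 with semaglutide and -0.73 ± 1.36 with the combined treatment, and Hp by -2.14 ± 1.22, -0.66 ± 1.22 and -1.72 ± 1.22 (limma adjusted p = 0.385 to 0.998). Without control 1 the Lcn2 difference was 0.65 with HIIT, 1.89 with semaglutide and 1.18 with the combined treatment, the opposite sign in each case, and the Hp difference with semaglutide was 0.63, also of opposite sign. The Lcn2 value with semaglutide then had an unadjusted p of 0.0377 and a limma adjusted p of 1. The HIIT value without control 1 still holds HIIT 4, a kidney with high injury markers. Its Lcn2 was 53.0 FPKM, against a median of 1.70 FPKM in the HIIT kidneys. A fit without both control 1 and HIIT 4 was not made. Over all kidney genes the median change was -0.26 with HIIT and -0.14 with semaglutide, and -0.01 and 0.01 after median-ratio scaling. Lcn2 with semaglutide was at 0.14 on that scaling.

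Other acute phase genes were few in kidney. Of 11 positive acute phase genes tested, 0 were called by limma in the pooled comparison of 12 treated with 4 control kidneys and 1 was lower at an unadjusted p under 0.05, where limma called 0% of all genes and 6.14% had an unadjusted p under 0.05. That gene was Mt2, a metallothionein, at -0.48 ± 0.20, and Pigr and Lbp followed at -0.68 ± 0.41 and -0.50 ± 0.33. Of 24 cytokine pathway genes 0 were called and 2 were lower at an unadjusted p under 0.05, a threshold that 6.14% of all genes passed in either direction. These 2 were the NF-kappaB targets Nfkbia (-0.81 ± 0.30) and Tnfaip3 (-0.80 ± 0.36), and Cebpd differed by -0.59 ± 0.28, all with control 1 included. Without control 1 the medians of these 2 lists were 0.26 and -0.04, against -0.19 and -0.32 with it. Over all kidney genes tested the median was -0.08 without control 1 and -0.16 with it. The iron axis (21 tested), the negative acute phase genes (6) and the receptors (7) had 0 genes called and 0 at an unadjusted p under 0.05. Among them the smallest p-values were those of Bmp6 (-0.40 ± 0.19), Id1 (0.38 ± 0.18) and Neo1 (-0.41 ± 0.20), of Cpn1 (-0.34 ± 0.16), Trf (-0.40 ± 0.28) and Apoa2 (-0.09 ± 0.20), and of Lrp1 (-0.54 ± 0.26), Cubn (-0.36 ± 0.20) and Slc22a17, the lipocalin-2 receptor (-0.25 ± 0.15). limma adjusted p-values of all these were 0.619 to 0.815.

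Among the kidney genes most like Lcn2 over the 16 libraries, of 11284 genes ranked, were C3 (r = 0.95), Edn1, the endothelin precursor (0.95), Plp2 (0.94) and Mideas (0.94), and also Slc34a2, Fosl2, Clic1, Cyp4v3 and Ckap4 at 0.94 to 0.93. Without control 1 r was 0.89 for Plp2 and 0.87 for C3, and it was lower for the others named here, from 0.86 (Edn1) to 0.82 (Cyp4v3). C3 had 7.97, 9.96, 15.3 and 79.8 FPKM in HIIT kidneys, 29.5, 27.9, 50.2 and 27.3 FPKM in semaglutide kidneys and 33.1, 36.0, 24.2 and 19.8 FPKM in combined kidneys, against 421, 11.4, 10.5 and 8.80 FPKM in control kidneys. As with Lcn2, all semaglutide and combined kidneys lay above controls 2, 3 and 4 and below control 1, a likeness for which C3 was chosen.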

How the data were processed

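Stranded paired-end libraries of poly(A) RNA from liver and kidney were sequenced, per the labels' protocols. Without saying what each did, the submitters' processing notes list CASAVA, FastQC, Trimmomatic 0.36 and STAR 2.7.9a, then featureCounts 2.0.1, StringTie 2.1.4 and the GRCm39 build; no strand setting for counting was found. The authors deposited FPKM, per transcript in liver (66878 transcripts, summed here to 22116 named genes) and per gene in kidney (23650 rows, 21797 named). FPKM corrects for length and depth, so levels can be compared between genes, but the depth itself is unknown: 19.0 to 23.3% of low liver values came to a whole number of fragments (tolerance 0.05) under the best step, too few to recover counts, so precision rests on the spread between libraries. The summed FPKM of a library was 518967 to 552993 in liver and 495273 to 662489 in kidney.

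Groups came from the sample titles. limma 3.58.1 (intensity trend, no block) in R 4.3.3 was run on log2(FPKM + 1), with all 4 groups of a tissue in 1 fit, genes reaching 1 FPKM in 3 liver or 4 kidney libraries, and Benjamini-Hochberg adjustment within a comparison (threshold 0.05). The pseudocount of 1 understates changes of low genes. The test was checked on simulated data. The members and gene lists were chosen with earlier results of these data known. The text names all members, the 4 (liver) or 3 (kidney) genes of each pathway list with the smallest p in the pooled comparison, Il6, Stat3, Socs3, Cebpb, Cebpd, Hamp2 and Orm3, the 10 genes most correlated with liver Saa1 and with kidney Lcn2 (1 of the kidney genes is not reported here), and markers of libraries that stand apart; Il1r1, Il1b and the levels of Fga and C3 were added after their values were seen. The reference genes Gm31882 and Gm52743 overlap Saa3 and Orm1, whose values are uncertain to that extent. The alternatives tried were another pseudocount (0.1), omitting the filter, scaling by median ratios, blocking on the replicate number, fitting only the groups compared, taking the highest liver transcript of each gene, and leaving out the libraries that stand apart or each library in turn. Promoter windows come from RefSeq. Figures were drawn with Python 3.11.15 and matplotlib 3.10.9.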

Additional observations from a re-analysis of the deposited data

Results flagged for a closer look

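Within groups of 4 kidneys, each member with a library of at least 1 FPKM was checked, on log2(FPKM + 1), for a library far from the other 3 by Dixon's ratio of gap to range, at the 95% critical value. Of 13 sets checked 4 held such a library. The highest library of a set also decided whether the set was checked, and control 1 was the library in more than 1 of the 4. The chance rate of about 1 in 20 for independent, unselected sets therefore does not apply to this count, which is descriptive only. Control 1 was far above the other controls for Lcn2 (633 FPKM), Saa1 (12.8 FPKM) and Saa3 (859.9 FPKM), and semaglutide 4 was far above the other semaglutide kidneys for Orm1 (3.09 FPKM). Liver groups have 3 libraries and were not checked this way.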

How the results depend on the processing

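Of 1233 member changes recomputed under an alternative, 1166 kept their direction and their side of the threshold, 36 changed sign and 31 passed the threshold, 30 of these without liver control 1 and 1 (Lcn2, combined against HIIT) in a fit of only the groups compared, which called 1 member. With 1 library left out at a time, the number of members called ran from 0 to 8 for HIIT, 0 to 6 for semaglutide, 0 to 5 for combined treatment, 0 to 3 for the interaction and 0 to 8 for all treated livers against control, each highest value being that without control 1, and it was 0 for the other comparisons. The number of all liver genes called then ran from 0 to 106 (0 with all libraries), 0 to 255 (74), 0 to 199 (32), 0 to 15 (1) and 0 to 285 (0) in the same comparisons, and leaving out kidney HIIT 4 gave 2123 calls with HIIT, where all kidneys gave 0. Where other settings moved these counts by more than 1.5 times, liver calls were 0 to 47 with semaglutide, 2 with HIIT, 5 for all treated livers, and with combined treatment 0 to 16, or 310 without the libraries that stand apart; combined against HIIT gave 2 to 7 calls, 562 with only these groups and 772 without semaglutide 2 and control 3, where all libraries gave 12. Without these libraries combined against semaglutide gave 44 calls and all treated livers 22, where all libraries gave 0, liver Hamp was 0.059 with semaglutide, liver Saa3 was 0.64 with combined treatment, and combined against semaglutide gave -0.026 for Orm1 and -0.033 for Saa4. Leaving out each library in turn, liver Saa3 with combined treatment ran from -2.94 to 0.64, and combined against semaglutide ran from -0.026 to 0.39 (Orm1), -0.25 to 0.19 (Orm2), -0.64 to 0.22 (Saa1), -0.92 to 0.11 (Saa2), -0.27 to 1.99 (Saa3) and -0.13 to 0.34 (Saa4). In kidney, Lcn2 ran from -2.39 to 0.65 with HIIT, -0.93 to 1.89 with semaglutide, -1.64 to 1.18 with combined treatment, -1.58 to 1.24 for all treated kidneys and -1.36 to 1.68 for the interaction, and the values of opposite sign to the full fit were those without control 1, which stands apart, and, with semaglutide, also those without semaglutide 3 or 4. Hp ran from -1.91 to 0.63 (without control 1) with semaglutide, -0.0091 to 0.97 for combined against HIIT, -1.82 to 0.19 for combined against semaglutide and -0.21 to 2.33 for the interaction. Kidney Lcn2 with semaglutide was also above 0 with a pseudocount of 0.1 (0.28) and on median-ratio scaling (0.14). The cause was not tested.

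In the main fit the replicate number was not used to pair libraries. The correlation of deviations between libraries of the same number was -0.31 to 0.16 over 18 liver pairs and -0.47 to 0.33 over 24 kidney pairs. Between libraries of different numbers it was -0.25 to 0.31 over 36 liver pairs and -0.52 to 0.5 over 72 kidney pairs. With so few libraries in a group, these values cannot show whether libraries were paired. With the replicate number as a block 0 members were called in any comparison, every member kept its direction, and the calls over all liver genes were 10 with semaglutide and 3 with combined treatment. The depth of the libraries is unknown.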
